A study of Mus musculus with 5 samples.

Results

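Autophagy delivers cytoplasmic material to the lysosome, and 10 genes of this pathway were followed in interscapular brown adipose tissue (BAT) of mice lacking the transcription factor ATF4 in thermogenic adipocytes. The genes were a list chosen by name, namely Ulk1, Becn1, Atg7, Atg12, Map1lc3a, Map1lc3b, Gabarapl1, Gabarapl2, Sqstm1 and Bnip3, some of which are known ATF4 targets in other settings. Each name matched 1 of the 52022 annotated genes in the count tables, and all 10 were among the 16450 genes that had enough counts to be tested. The lowest count of any of them in any library was 875.

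RNA sequencing was done on BAT from 5 mice, 1 library each. The 3 ATF4 BKO mice carried floxed Atf4 (ATF4 fl/fl) and a Cre recombinase transgene driven by the Ucp1 promoter, Tg(Ucp1-cre)1Evdr, which is active in thermogenic adipocytes and leaves Atf4 intact in the other cells of the tissue. The 2 WT mice were ATF4 fl/fl without Cre, so that the floxed alleles were common to both groups and the transgene itself was not. All were labelled male, were 10 to 12 weeks old on a C57Bl/6J background, had been acclimated to 30 °C and were then kept at 4 °C for 3 days with free access to food. No library from warm-housed mice was analysed here, so the values describe the genotypes in the cold and not the response to cold.

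Autophagy starts when the ULK kinase complex and then a phosphatidylinositol 3-kinase complex prepare a membrane. A ubiquitin-like conjugation system attaches ATG8 family proteins (the LC3 and GABARAP proteins) to that membrane, cargo receptors such as p62 tether the cargo to them, and the closed autophagosome fuses with a lysosome. In mitophagy the cargo is a mitochondrion, marked by receptors in its outer membrane such as BNIP3 and NIX or by ubiquitin added after the kinase PINK1 builds up on it. Brown adipocytes are rich in mitochondria, and mitophagy is known for removing them when the tissue is no longer stimulated. ATF4, the effector of the integrated stress response, is known to activate autophagy genes under amino acid starvation and endoplasmic reticulum stress.

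Library totals ran from 24698337 to 32452751 estimated counts. Atf4 was at 32.6, 52.6 and 23.5 CPM in ATF4 BKO 1, 2 and 3 and at 286 and 226 CPM in WT 1 and 2, where CPM stands for counts scaled to the TMM-adjusted library total, so the deleted gene matched the genotype labels in all 5 libraries. ATF4 BKO 1 went against its label of male, with Xist at 4598 estimated counts, where no other library exceeded 7, and 34 counts over Y-linked genes against 3284 to 4476. Skeletal muscle markers, 16 genes including Acta1, Ckm and Myh4, summed to 4.01 to 32.8 CPM in the ATF4 BKO libraries, 103 CPM in WT 1 and 2364 CPM in WT 2, with Myoz1 at 0 in ATF4 BKO 1 and Tnnt3, Pvalb and Myoz1 at 0 in ATF4 BKO 3. The 8 macrophage markers summed to 756, 1290 and 470 CPM in ATF4 BKO and to 173 and 1069 CPM in WT. The 6 endothelial markers summed to 996 to 1285 CPM in ATF4 BKO and 811 to 961 CPM in WT. The 10 brown adipocyte markers, Ucp1 and Cidea among them, summed to 20350 to 25740 CPM in ATF4 BKO and 19410 to 21570 CPM in WT. Genes of the mitochondrial genome took 18.5 to 22.0% of counts in ATF4 BKO and 15.1 to 15.6% in WT. In bulk tissue, fewer cells of a type and less RNA per cell cannot be told apart.

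At the transcript level most autophagy genes of the list had small estimated differences between the genotypes. Small estimates were not all precise, as the 95% interval of Gabarapl1 ran from 0.50- to 2.08-fold. The estimated log2 fold change of ATF4 BKO over WT lay within 0.25 of 0 for 8 of the 10 genes, compared with 59.8% of all genes tested, and their median was 0.03 compared with 0.01 over all genes tested. By sign, 7 were higher and 3 lower. The exceptions were Bnip3, a mitophagy receptor gene that was 1.86-fold as high in ATF4 BKO, and Sqstm1, the gene of the cargo receptor p62, whose 0.50-fold ratio came with a 95% interval from 0.19 to 1.32. In the edgeR quasi-likelihood test none of the 10 had an adjusted p under 0.05, where 0.00608% of all genes tested were called (a single gene, Cacna1i, named here after its values were seen). With an unadjusted edgeR p under 0.05 there was 1, Bnip3, against 5.23% of all genes tested. DESeq2 called 1 of the 10, again Bnip3, against 0.736% of all genes tested. Every ATF4 BKO library was above both WT libraries for 2 of the 10, Ulk1 and Bnip3, which held for 8.95% of all genes tested, and below both for 0 of the 10, which held for 10.6%. With 2 WT libraries the spread within WT rests on a single pair of mice, and an exact permutation test of 3 against 2 libraries cannot go below p = 0.1.

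**Figure D1:**
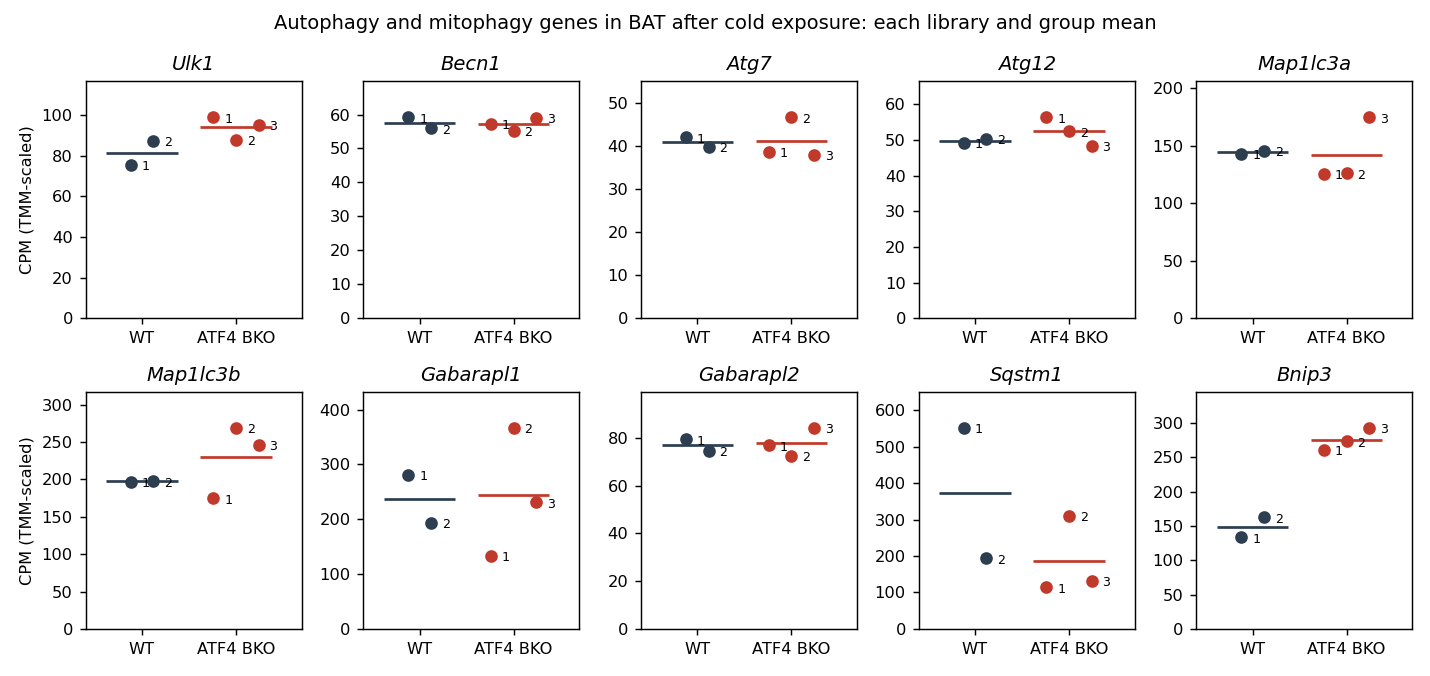
CPM of each of the 10 genes (y axis, TMM-scaled, starting at 0) in the WT and ATF4 BKO libraries, with points numbered by replicate and a line at each group mean. The 3 ATF4 BKO libraries sit at 261 to 293 CPM for Bnip3, above both WT libraries at 134 and 163, whereas Sqstm1 in WT 1 (552 CPM) stands apart from the other 4 libraries.

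Bnip3 and Sqstm1 were the genes that stood out, so the promoter sequence of each is given here, as the 250 bases before the RefSeq transcription start (GRCm38.p6), written 5′ to 3′ on the strand of the gene, in lower case with motif matches in capitals. The Bnip3 window is chr7:138909507-138909756, minus strand, and the Sqstm1 window is chr11:50210821-50211070, minus strand.
Bnip3: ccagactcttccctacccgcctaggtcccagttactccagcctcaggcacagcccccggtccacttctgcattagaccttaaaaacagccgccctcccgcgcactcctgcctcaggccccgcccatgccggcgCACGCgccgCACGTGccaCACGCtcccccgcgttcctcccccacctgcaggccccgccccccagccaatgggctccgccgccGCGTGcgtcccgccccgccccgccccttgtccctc
Sqstm1: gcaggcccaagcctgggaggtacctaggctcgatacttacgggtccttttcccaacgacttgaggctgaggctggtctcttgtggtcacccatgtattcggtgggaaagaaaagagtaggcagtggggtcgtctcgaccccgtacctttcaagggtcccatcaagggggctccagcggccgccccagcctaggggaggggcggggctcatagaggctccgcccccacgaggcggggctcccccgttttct
Both strands were searched for TGATGNAA, the core of the C/EBP-ATF response element that ATF4 binds with a partner, for CACGTG, the E-box bound by the MiT/TFE factors and others, and for ACGTG and GCGTG, the core letters of hypoxia response elements. Each CACGTG also holds ACGTG on both strands. A RefSeq promoter was matched for 7 of the 10 genes, and not for Map1lc3a, Becn1 and Atg12.

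TGATGNAA was in 0 of these 7 promoters, in 3.45% of the 32851 mouse promoters of the same length and in 6 of the 13 promoters matched for ATF4 targets outside autophagy. CACGTG was in the promoters of Bnip3 and Atg7 and in 6.02% of all promoters. ACGTG was in those of Bnip3, Atg7 and Gabarapl2 and in 16.6% of all promoters, and GCGTG in those of Bnip3, Map1lc3b and Ulk1 and in 28.2% of all. The Bnip3 window held 1 CACGTG and 3 copies of GCGTG, whereas the Sqstm1 and Gabarapl1 windows held none of the 4 motifs. A match here is a run of letters in this window only.

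Because genes differ in length, their levels were compared with each other in TPM, which is scaled per transcript length. The highest mean levels over the 5 libraries were those of Map1lc3a, at 256 TPM with a range of 202 to 290, and Sqstm1, at 243 TPM with a range of 100 to 519. Map1lc3b followed at 187 TPM, Bnip3 at 184 TPM, Gabarapl1 at 175 TPM and Gabarapl2 at 113 TPM. The ranges of neighbours in this order overlapped from Map1lc3a down to Gabarapl2, although Gabarapl2, with a range of 98.4 to 120.6 TPM, lay below every library of Map1lc3a, Map1lc3b and Bnip3. Becn1 was next at 53.5 TPM and Ulk1 at 28.0 TPM, each with a range clear of the genes above and below it. Atg7 at 16.9 TPM and Atg12 at 13.4 TPM overlapped. These levels sum all annotated transcripts of a gene, noncoding ones included. On that sum, genes of ATG8 proteins, the cargo receptor and the mitophagy receptor were more abundant than those of initiation, nucleation and conjugation. The protein-coding transcripts Map1lc3a-201 and Gabarapl2-201 alone averaged 24.5 and 29.6 TPM, beside 19.2 TPM for the protein-coding Ulk1-201. The lowest of the 10 by gene sum, Atg12, was still at the percentile 65.9 of all genes tested.

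Ulk1 (chr5:110784488-110810097, minus strand, GRCm38) encodes the kinase that starts autophagosome formation. It was at 99.0, 88.0 and 95.3 CPM in ATF4 BKO 1, 2 and 3 and at 75.5 and 87.4 CPM in WT 1 and 2. Every ATF4 BKO library was above both WT libraries, by a margin of 88.0 against 87.4 CPM at the nearest pair. The log2 fold change was 0.21 (SE 0.13, edgeR adjusted p = 0.920), with a 95% interval of −0.11 to 0.53. Scaled by DESeq2 size factors, by library totals or as TPM, the genotypes overlapped, with Ulk1 at 28.0, 28.0 and 28.1 TPM in ATF4 BKO and 25.0 and 31.1 TPM in WT.

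Becn1 (chr11:101285952-101302286, minus strand) encodes Beclin 1, a subunit of the phosphatidylinositol 3-kinase complex that nucleates the membrane. Its level was the steadiest of the 10, at 57.3, 55.2 and 59.0 CPM in ATF4 BKO and 59.2 and 55.9 CPM in WT, a highest-to-lowest ratio of 1.07. The log2 fold change was −0.01 (SE 0.11, edgeR adjusted p = 0.992) and the 95% interval of the ratio was 0.82- to 1.20-fold. On the TPM scale the ATF4 BKO libraries were lower, at 43.4, 53.9 and 51.1 against 59.2 and 60.0 TPM in WT. On that scale the median estimate of all genes tested was also lower in ATF4 BKO, and the share of all genes without overlap was not counted. Counts of Becn1 were divided over 17 annotated transcripts, 7 of which reached 5% of the gene's TPM in at least 1 library, and 40.0% of its 31-base sequences also occur in transcripts of other genes, mostly on the opposite strand at Cntd1. The pseudogene Zfp783 shared 34 such sequences, summed over transcripts, where Becn1 has 7356 in all. Its counts were 6.09 to 11.1% of those of Becn1, which does not measure how many reads were shared.

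Atg7 and Atg12 belong to the conjugation system, ATG7 as the E1-like activating enzyme and ATG12 as a ubiquitin-like protein joined to ATG5. Atg7 (chr6:114643097-114860614, plus strand) was at 38.6, 46.7 and 37.9 CPM in ATF4 BKO and at 42.0 and 39.8 CPM in WT. The WT values lay inside the ATF4 BKO range, and the log2 fold change was 0.01 (SE 0.14, edgeR adjusted p = 0.996). Atg12 (chr18:46730144-46741580, minus strand) was at 56.4, 52.5 and 48.3 CPM in ATF4 BKO and at 49.2 and 50.3 CPM in WT. The genotypes overlapped here too, with a log2 fold change of 0.08 (SE 0.12, edgeR adjusted p = 0.963). The 95% intervals were −0.34 to 0.36 for Atg7 and −0.23 to 0.38 for Atg12.

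The ATG8 family genes varied among the libraries to different degrees, from a highest-to-lowest ratio of 1.16 for Gabarapl2 to 2.75 for Gabarapl1. Gabarapl2 (chr8:111940703-111953612, plus strand), which encodes GATE-16, was at 76.9, 72.5 and 84.1 CPM in ATF4 BKO and at 79.4 and 74.5 CPM in WT, with a log2 fold change of 0.02 (SE 0.12, edgeR adjusted p = 0.989). Map1lc3a (chr2:155276297-155278073, plus strand), which encodes LC3A, was at 126, 126 and 175 CPM in ATF4 BKO and at 143 and 146 CPM in WT. WT lay between the ATF4 BKO libraries, with a log2 fold change of −0.02 (SE 0.18, edgeR adjusted p = 0.991).

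Map1lc3b (chr8:121590361-121598760, plus strand) encodes LC3B, the form most used as a marker of autophagosomes. It was at 175, 269 and 246 CPM in ATF4 BKO against 197 and 198 CPM in WT, where the 2 WT libraries were nearly equal and ATF4 BKO libraries lay on both sides of them. The log2 fold change was 0.22 (SE 0.21, edgeR adjusted p = 0.938). Gabarapl1 (chr6:129533160-129542346, plus strand), which encodes GEC1, was at 133, 367 and 231 CPM in ATF4 BKO and at 281 and 194 CPM in WT. Its highest and lowest libraries were both ATF4 BKO, and its log2 fold change of 0.04 had an SE of 0.42 and a 95% interval of −0.99 to 1.06 (edgeR adjusted p = 0.993). Without ATF4 BKO 1, the lowest library for both genes, the log2 fold changes were 0.38 for Map1lc3b and 0.33 for Gabarapl1.

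Transcript annotation bears on what these levels stand for. A retained-intron transcript, Gabarapl2-203, took 71.9 to 75.5% of the TPM of Gabarapl2. For Map1lc3a the protein-coding transcript Map1lc3a-201 took 9.02 to 10.3% of TPM, and the processed transcripts Map1lc3a-202 and Map1lc3a-203 took the rest. The protein-coding Gabarapl1-201 took 98.4 to 99.7% of TPM of its gene and Atg12-201 took 94.3 to 96.7%. The Becn1 transcript with the largest share, Becn1-201, is annotated as nonsense-mediated decay and took 32.05 to 39.21% of TPM. Map1lc3b shares at least 30 31-base sequences, summed over transcripts, with each of 9 pseudogenes, Mdm4-ps among them. Their summed counts were at most 0.482% of those of Map1lc3b. Map1lc3b also overlaps the same-strand readthrough gene Gm20388, which was at 3157 to 4094 estimated counts.

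Sqstm1 (chr11:50199366-50210827, minus strand) encodes p62, which binds ubiquitinated cargo and LC3 and is itself degraded by autophagy. It was at 115, 311 and 133 CPM in ATF4 BKO 1, 2 and 3 and at 552 and 194 CPM in WT 1 and 2. WT 1 was the highest library, ATF4 BKO 2 was second and above WT 2, and ATF4 BKO 1 and 3 were the lowest. The highest-to-lowest ratio of 4.81 was the largest of the 10 genes, and the 2 WT libraries alone differed by 2.84-fold. The log2 fold change was −1.0 (SE 0.58, edgeR adjusted p = 0.916, DESeq2 adjusted p = 1.00), and an exact two-sided permutation test gave p = 0.3.

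The estimate for Sqstm1 rested on which libraries were used. Without WT 1 the log2 fold change was −0.06, without WT 2 it was −1.59 and without ATF4 BKO 2 it was −1.58. Only the last of these settings gave a call, in DESeq2 (adjusted p = 0.0349) and not in edgeR (adjusted p = 0.714). WT 1 was also the library with the lowest macrophage marker sum, and ATF4 BKO 2 the library with the highest. The part of cell composition in the Sqstm1 values was not tested.

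**Figure D2:**
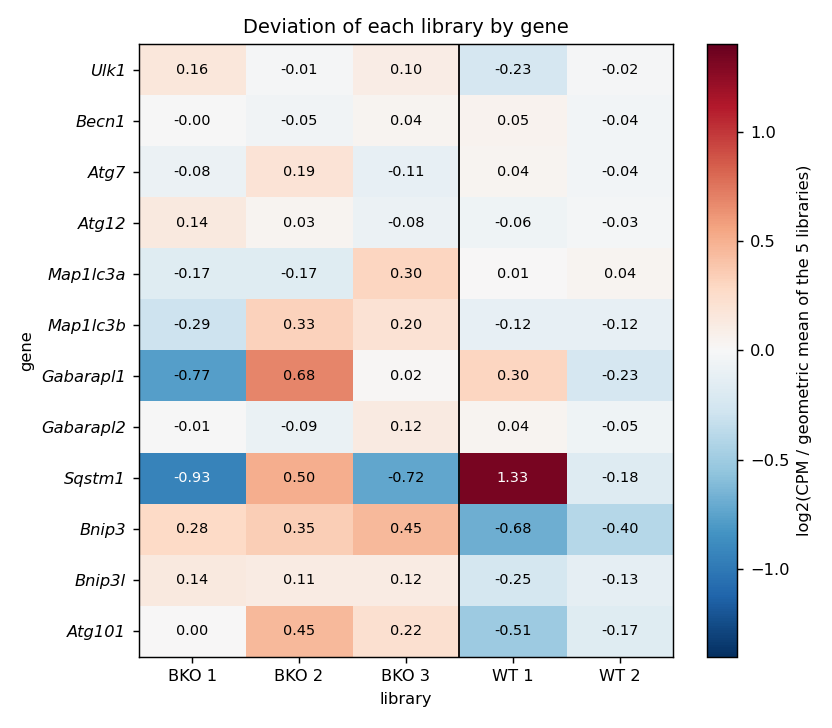
Deviation of each library (columns) from the geometric mean of the 5 libraries for the 10 genes and for Bnip3l and Atg101 (rows), in log2 units, with red above and blue below the mean. For Bnip3 the 3 ATF4 BKO libraries are at 0.28 to 0.45 and the WT libraries at −0.68 and −0.40, whereas for Sqstm1 WT 1 is at 1.33 and for Gabarapl1 ATF4 BKO 1 and 2 are at −0.77 and 0.68.

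Bnip3 (chr7:138890836-138909519, minus strand) encodes an outer mitochondrial membrane receptor that binds LC3, and it is a known target of hypoxia-inducible factors. It was at 261, 273 and 293 CPM in ATF4 BKO 1, 2 and 3 and at 134 and 163 CPM in WT 1 and 2. The genotypes did not overlap, and the ATF4 BKO libraries differed among themselves by 1.12-fold. The mean was 276 ± 16.1 CPM (SD, n = 3) in ATF4 BKO and 148 ± 20.5 CPM (SD, n = 2) in WT. The log2 fold change was 0.90 (SE 0.15), with a 95% interval of 0.53 to 1.26, which is 1.44- to 2.40-fold.

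By the test, Bnip3 passed in DESeq2 (adjusted p = 5.66e-05) and not in edgeR (unadjusted p = 0.000958, adjusted p = 0.671). Among the genes with a higher estimate in ATF4 BKO in the same tool, 8425 of them in edgeR, it ranked 3rd by p in both tools. The exact two-sided permutation p was 0.1, the smallest that 10 arrangements can give. Bnip3 stayed above without overlap under each scaling, and on the TPM scale the values were 190, 230 and 219 in ATF4 BKO against 121 and 158 in WT.

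Leaving out single libraries gave a log2 fold change of Bnip3 between 0.78 and 1.03 in edgeR. It was 0.94 without ATF4 BKO 1, the library with Xist counts, and 1.03 without WT 2, the library with the highest muscle marker sum. WT 1 was also above every ATF4 BKO library in that sum. In DESeq2 the call was lost without WT 1 (log2 fold change 0.77, adjusted p = 0.167) and held when any other library was left out. Adjusted for muscle marker level, the log2 fold change was 1.12 (edgeR adjusted p = 0.223). That level was higher in both WT libraries than in any ATF4 BKO library, so this fit cannot separate it from genotype. The submitters' run names carry 1 of 2 prefixes of unstated meaning. Within the first prefix the log2 ratio was 1.00 (ATF4 BKO 1 and 2 against WT 1) and within the other it was 0.85 (ATF4 BKO 3 against WT 2). The mitochondrial share and the endothelial marker sum were also higher in every ATF4 BKO library than in either WT library, and their part in the Bnip3 difference was not tested.

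The difference in Bnip3 was in its main protein-coding transcript. Bnip3-201, which took 78.5 to 89.6% of the gene's TPM, was at 168, 201 and 196 TPM in ATF4 BKO and at 98.2 and 124 TPM in WT. Of the 31-base sequences of Bnip3 transcripts, 57.0% also occur in transcripts of other genes, mostly in the long noncoding RNA AC160336.1, and 20.3% do so on the same strand. AC160336.1 was at 9.49, 15.7 and 10.4 TPM in ATF4 BKO and 12.0 and 9.98 TPM in WT, where the genotypes overlapped. Its estimated counts ran from 19260 to 34652, more than those of Bnip3 in every library. The antisense gene Gm45507, which overlaps Bnip3, had 30.1, 57.0 and 328.8 estimated counts in ATF4 BKO and 8.4 and 56.6 in WT, against 4219 to 8699 for Bnip3. The library kit marked strand, but whether the counting used it is not stated, so reads of the shared sequence may have been divided between these genes.

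**Figure D3:**
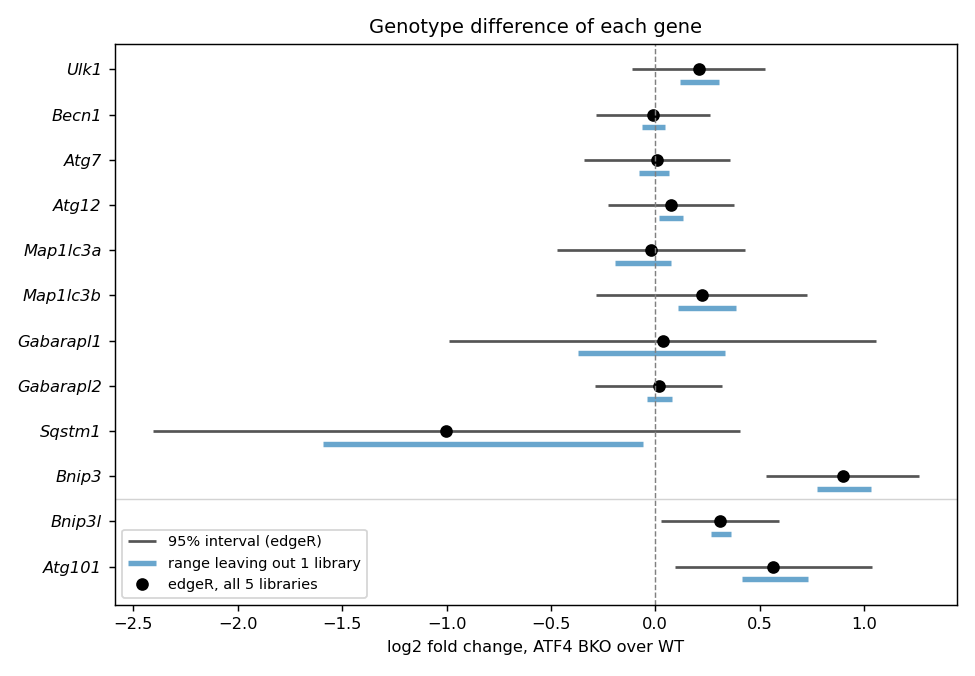
Log2 fold change of ATF4 BKO over WT (x axis) for the 10 genes and, under the grey line, Atg101 and Bnip3l, with the edgeR estimate as a point, its 95% interval as a dark line and the range over fits that each leave out 1 library as a blue bar. Of the 10 genes only Bnip3 has an interval above 0, and the leave-out range of Sqstm1 runs from −1.59 to −0.06. Atg101 and Bnip3l were drawn because their unadjusted edgeR p was under 0.05. That choice itself puts their intervals clear of 0.

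The rest of the pathway was read from 56 further autophagy genes in 8 lists by role, all of which were tested. By sign, 34 were higher and 22 lower in ATF4 BKO, their median log2 fold change was 0.05, and 49 lay within 0.25 of 0. Neither edgeR nor DESeq2 called any of them, where they called 0.00608% and 0.736% of all genes tested. Shares that low make no call the usual outcome for a list of this size. An unadjusted edgeR p under 0.05 was found for 2, Atg101 and Bnip3l, both higher, compared with 5.23% of all genes tested. Each ATF4 BKO library was above both WT libraries for 4 of the 56 and below for 5, compared with 8.95% and 10.6% of all genes tested.

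Bnip3l encodes NIX, the mitophagy receptor most similar to BNIP3. It was at 118, 116 and 116 CPM in ATF4 BKO and at 90.0 and 98.0 CPM in WT, without overlap. In TPM the genotypes overlapped, at 87.9, 108 and 82.6 in ATF4 BKO and 83.1 and 88.3 in WT. The log2 fold change was 0.31 (SE 0.12, edgeR adjusted p = 0.911, DESeq2 adjusted p = 0.571), a 1.24-fold difference, and it was 0.11 on the log2(TPM + 1) scale. In the mitophagy list, Fundc1, Pink1, Bcl2l13, Fkbp8, Phb2 and Usp30 had no unadjusted p under 0.05. Of the 31-base sequences of Bnip3l, 23.7% also occur in other genes, mostly in the pseudogene Bnip3l-ps, which had 0 counts in every library.

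Among the initiation genes, Atg101, a subunit of the ULK complex that stabilises ATG13, was at 27.6, 37.7 and 32.2 CPM in ATF4 BKO and at 19.3 and 24.5 CPM in WT. The groups did not overlap in CPM but did in TPM, where ATF4 BKO 1 at 26.9 was below WT 2 at 29.3. Its log2 fold change was 0.57 (SE 0.19, edgeR adjusted p = 0.911, DESeq2 adjusted p = 0.480), and 0.37 to 1.04 over the alternative fits. The other ULK complex genes, Ulk2, Atg13 and Rb1cc1, brought the median of the 4 to 0.11. For both Atg101 and Bnip3l the exact permutation p was 0.1.

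In the remaining roles no gene had an unadjusted p under 0.05, and the gene with the smallest p in each list had a modest estimate. Among 7 nucleation genes (median 0.01) it was Atg14, which directs the lipid kinase to autophagy, with a log2 fold change of 0.27. Among 10 membrane supply genes (median 0.10) it was Vmp1, an endoplasmic reticulum scramblase, with −0.16. Among 9 conjugation genes (median −0.03) it was Atg16l1, the partner of ATG12-ATG5, with −0.17. Among 6 cargo receptors (median −0.01) it was Calcoco1, an ER-phagy receptor, with 0.39. Among 7 fusion genes (median 0.07) it was Epg5, a tether between autophagosome and lysosome, with −0.18. Among 5 transcription factors of autophagy genes (median 0.20) it was Foxo1, with 0.41. Their edgeR adjusted p-values were 0.911 to 0.936.

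Lysosomal genes were read in the same way. Of 16, 12 were higher and 4 lower, with a median log2 fold change of 0.11. Neither edgeR nor DESeq2 called any, where they called 0.00608% and 0.736% of all genes tested. At such shares no call is the usual outcome for a list of this size. The genes with the smallest p-values were Psap, the saposin precursor, with a log2 fold change of 0.27, the sialidase Neu1 with 0.22 and the protease Ctsl with 0.35. Ctsl was highest in ATF4 BKO 2, the library with the highest macrophage marker sum, at 389 CPM against 166 to 214 CPM in the other 4 libraries, and its part in that value was not tested.

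ATF4 targets outside autophagy, 14 genes of amino acid synthesis, transport and stress signalling read from the same libraries, had larger estimates. All 14 had lower estimates in ATF4 BKO, with a median log2 fold change of −1.91. DESeq2 called 8 of them, against 0.736% of all genes tested, and edgeR none, against 0.00608%. An unadjusted edgeR p under 0.05 was found for 12, against 5.23% of all genes tested. These genes were chosen as ATF4 targets with earlier results of these data known, so their shared direction was not an independent result. Mthfd2, a mitochondrial folate enzyme, was at 3.67, 6.09 and 3.23 CPM in ATF4 BKO and at 61.9 and 25.6 CPM in WT, a log2 fold change of −3.33. Chac1, a glutathione-degrading enzyme, and Fgf21, a hormone gene, had log2 fold changes of −2.44 and −3.57. The 10 autophagy genes ranged from −1.0 to 0.90 and the 56 further autophagy genes from −0.26 to 0.57, and the difference between these lists was not tested.

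**Figure D4:**
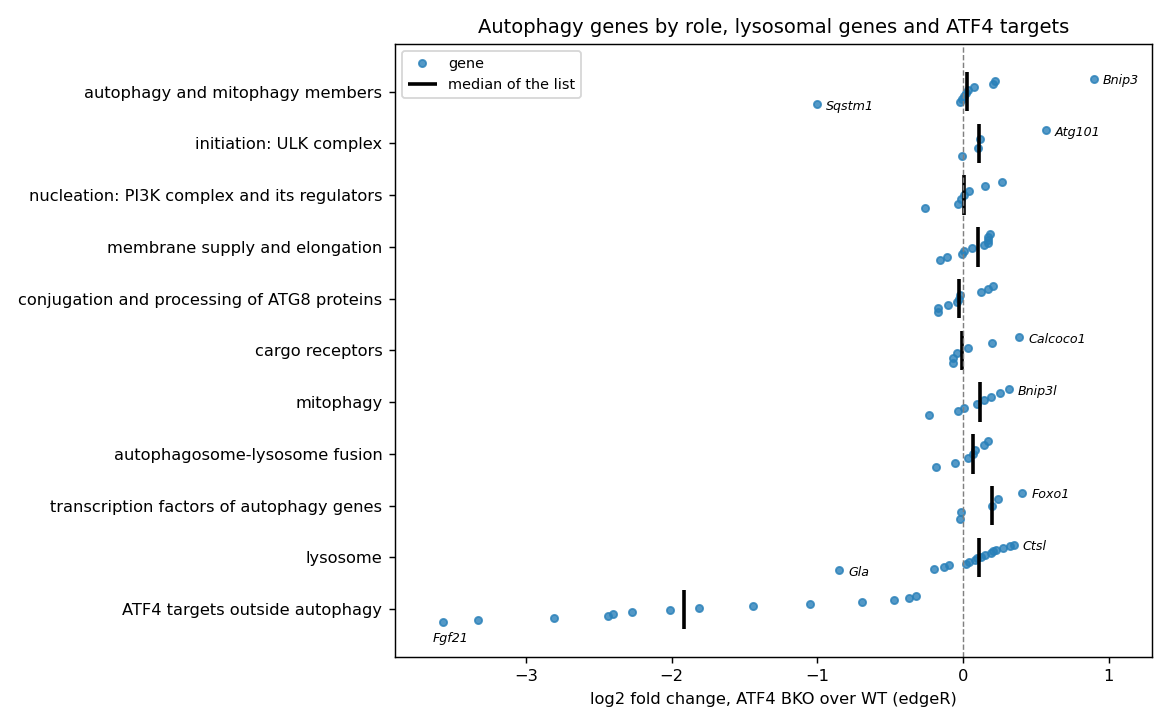
Log2 fold change of ATF4 BKO over WT (x axis, edgeR) of each gene in the 10 followed genes, 8 further autophagy lists, lysosomal genes and ATF4 targets outside autophagy (rows), with a black bar at the median of each list. The autophagy and lysosomal medians lie between −0.03 and 0.20, and the median of the ATF4 targets is −1.91.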

How the data were processed

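Libraries were made by the authors from TRIzol- and RNeasy-purified RNA with the Illumina TruSeq mRNA Stranded kit, sequenced on a HiSeq4000 and quantified with Kallisto 0.45.0 (mm10). The files deposited by the authors hold estimated counts and TPM per transcript. The transcriptome index and the strand option are not given in the sources used here. Estimated counts and TPM were summed per gene with GENCODE M21 (138191 of 141450 transcripts matched, 1.16 to 1.29% of counts unmatched), and gene counts were rounded.

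Genotypes were compared with edgeR 4.0.16 (quasi-likelihood F-test, TMM, keeping genes that reached 10 counts in 2 or more libraries, Benjamini-Hochberg over 16450 genes, threshold 0.05, R 4.3.3) on genotype alone. The residual degrees of freedom were 3. Alternatives were DESeq2 1.42.0, other scalings, no filter beyond 1 count, dropping each library in turn, limma 3.58.1 with a pseudocount of 1 or 0.1 TPM before log2, a replicate block, the run name prefix as a block and a skeletal muscle covariate. DESeq2 leave-outs and the overlap counts under other scalings were added after seeing the data. All 10 genes are named, and, of the other autophagy lists, genes with an unadjusted edgeR p under 0.05 or else the one with the smallest p, plus at most 3 each of the lysosomal genes and ATF4 targets. The members and lists were chosen with earlier results of these data known. The fits were also run on simulated counts, with larger fold changes than those of the 10 genes and a dispersion below the common dispersion estimated here. That run does not measure their power for these genes. No protein sequence was used here. One gene of the mitophagy list is not reported here by name.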

Additional observations from a re-analysis of the deposited data

How the results depend on the processing

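Bnip3 kept a higher estimate in ATF4 BKO in all 19 alternative fits, with log2 fold changes of 0.62 to 1.12 and adjusted p from 5.66e-05 to 1.00. Sqstm1 kept a lower one in 19, from −1.59 to −0.06. edgeR called 1 gene of all tested and 0 to 23 when 1 library was left out, the highest without WT 1, and 860 had an unadjusted p under 0.05. DESeq2 called 121 (21 higher, 100 lower), and 120, 205 and 54 without ATF4 BKO 1, 2 and 3 and 74 and 533 without WT 1 and 2. Without the count filter 8 were called, with log2(TPM + 1) 0, with log2(TPM + 0.1) 2, with the run name prefix as a block 0, and with the muscle covariate 214 (207 higher, 7 lower). The DESeq2 count of the 10 autophagy genes was 1, and 0 to 2 in its leave-outs. The replicate numbers in the labels pair 2 libraries of each genotype, whose deviations correlated at 0.04 and 0.20, and nothing in the labels ties them, so the fit with a replicate block stands only here, with 0 genes called, 711 at an unadjusted p under 0.05, 0 of the 10 and a median of 0.01 over the 10.

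The median log2 fold change of the 10 genes was −0.068 with library totals, −0.19 with log2(TPM + 1), −0.20 with log2(TPM + 0.1) and 0.12 with the muscle covariate, when the median of all genes tested was −0.10, −0.12, −0.17 and 0.01. The number without overlap was 1 above with library totals, DESeq2 size factors and TPM, 1 below (Becn1) with library totals and 2 below (Gabarapl2 and Becn1) with TPM. With 1 library left out it was 2 to 3 above and 0 to 2 below. The share of all genes tested was counted only with TMM scaling and all 5 libraries. These other counts therefore have no background beside them, and with fewer libraries a gap between the groups is easier to reach. The sign of small estimates turned. Map1lc3a was 0.0072 with the prefix block, −0.19 to 0.077 leaving out 1 library, 0.063 in DESeq2 without ATF4 BKO 1 and 0.071 in DESeq2 without ATF4 BKO 2. Gabarapl1 was −0.043 with library totals, −0.23 with log2(TPM + 1), −0.23 with log2(TPM + 0.1), −0.078 with the replicate block, −0.37 to 0.33 leaving out 1 library, −0.37 in DESeq2 without ATF4 BKO 2 and −0.22 in DESeq2 without WT 2. Gabarapl2 was −0.092 with library totals, −0.17 with log2(TPM + 1), −0.17 with log2(TPM + 0.1), −0.043 with the replicate block, −0.17 with the muscle covariate, −0.042 to 0.082 leaving out 1 library, −0.044 in DESeq2 without ATF4 BKO 3 and −0.032 in DESeq2 without WT 2. Becn1 was −0.064 to 0.045 leaving out 1 library, 0.025 in DESeq2 without ATF4 BKO 2 and 0.044 in DESeq2 without WT 1. Atg7 was −0.094 with library totals, −0.22 with log2(TPM + 1), −0.23 with log2(TPM + 0.1), −0.017 with the prefix block, −0.079 to 0.064 leaving out 1 library, −0.085 in DESeq2 without ATF4 BKO 2 and −0.037 in DESeq2 without WT 2. Atg12 was −0.032 with library totals, −0.089 with log2(TPM + 1) and −0.095 with log2(TPM + 0.1). Neu1 was −0.070 with log2(TPM + 1) and −0.077 with log2(TPM + 0.1). Ctsl was −0.067 to 0.58 leaving out 1 library and −0.073 in DESeq2 without ATF4 BKO 2. The cause of these moves was not tested. With 2 WT libraries, differences such as those of Gabarapl1 and Sqstm1 could not be resolved.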
